A study of Homo sapiens with 4 samples.

Results

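The subunits of the glutamate and GABA receptors were examined in SH-SY5Y cells, a human neuroblastoma line, after silencing of the tetraspanin gene TSPAN8. Every probe set whose only annotated symbol fitted a set of patterns for AMPA, kainate, NMDA and metabotropic glutamate receptors, for GABA-B receptors and for the alpha, beta, gamma, delta and epsilon subunits of GABA-A receptors was taken, whatever its value. This gave 92 probe sets for 35 genes, out of 54613 probe sets and 19775 singly annotated genes on the array. The 35 genes comprised 4 AMPA, 5 kainate, 7 NMDA, 7 metabotropic glutamate, 10 GABA-A and 2 GABA-B receptor genes. Another 2 probe sets that list a receptor symbol together with other genes were outside the selection.

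TSPAN8 knockdown cells and control cells were each measured on 2 arrays. All cells were of the same line, grown in medium with fetal bovine serum, and RNA was collected after 72 h. Knockdown cells received small interfering RNA against TSPAN8 through the Accell self-delivering system, and the other cells are labelled a transfection control, without naming what they received. No label states that replicates were grown apart, and the p-values therefore reflect array-to-array spread that may be technical only. Fewer cells of a type and less RNA per cell cannot be told apart in such bulk RNA.

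Glutamate and GABA are the main excitatory and inhibitory transmitters of the brain. AMPA, kainate and NMDA receptors are cation channels assembled as tetramers of glutamate receptor subunits, whereas metabotropic glutamate receptors act through G proteins. GABA-A receptors are pentameric chloride channels, usually built from alpha and beta subunits with a gamma or delta subunit, and GABA-B receptors are obligate pairs of 2 G protein-coupled subunits. They are known chiefly from central neurons, while SH-SY5Y cells derive from the sympathetic lineage. GRIN2A, an NMDA receptor subunit, was named as the marker of the gene set.

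Promoters are shown for 3 members that stand for the range of signals described here: GRIA2 had the brightest AMPA probe set, GRM7 gave the brightest probe set of all members, and GRIN2A is the marker. Each is the 250 bases before the annotated start (the most upstream of 3 for GRIA2), from RefSeq on GRCh38.p14, 5′ to 3′ on the strand of the gene, with CG dinucleotides in capitals. They lie at chr4:157219870-157220119 (plus strand) for GRIA2, chr3:6860865-6861114 (plus strand) for GRM7 and chr16:10182068-10182317 (minus strand) for GRIN2A.
GRIA2: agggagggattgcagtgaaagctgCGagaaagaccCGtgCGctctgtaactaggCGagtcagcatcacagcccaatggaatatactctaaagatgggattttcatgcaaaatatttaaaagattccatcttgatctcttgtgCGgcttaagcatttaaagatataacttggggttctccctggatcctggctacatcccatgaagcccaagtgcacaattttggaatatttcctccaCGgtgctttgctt
GRM7: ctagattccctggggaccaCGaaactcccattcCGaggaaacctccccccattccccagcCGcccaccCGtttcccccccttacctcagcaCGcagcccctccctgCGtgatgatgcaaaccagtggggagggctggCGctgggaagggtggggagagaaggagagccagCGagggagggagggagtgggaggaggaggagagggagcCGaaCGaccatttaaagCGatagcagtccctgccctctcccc
GRIN2A: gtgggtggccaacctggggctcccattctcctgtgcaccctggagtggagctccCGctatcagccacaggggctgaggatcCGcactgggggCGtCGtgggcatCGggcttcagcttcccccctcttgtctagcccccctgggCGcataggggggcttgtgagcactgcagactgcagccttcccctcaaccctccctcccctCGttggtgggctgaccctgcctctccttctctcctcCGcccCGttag
These hold 6 CG dinucleotides for GRIA2, 11 for GRM7 and 9 for GRIN2A. The windows of the other GRIA2 starts, not printed, hold 8 and 43, so the printed window does not stand for all of them. RefSeq windows were held for 28 of the 35 genes, 44 in all. The median count of CG in the 250 bases was 9 over the windows of genes with a probe set above the array median (17 windows, 9 genes), 11 over those of the other members (27 windows, 19 genes) and 11 over all 35116 windows.

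The labels were first checked on TSPAN8 itself. Its probe set had log2 values of 6.25 and 6.35 after knockdown, against 7.52 and 7.62 in control cells, a difference of -1.27 ± 0.062 (SE; limma, adjusted p = 0.0026). It was the only probe set of the array past an adjusted p of 0.05 (0.00183% of those tested). Its adjusted p was 0.16 under a replicate block and 0.69 without eBayes moderation, so that 0 probe sets passed in either fit. The count also moved with the arrays used, since 25 probe sets passed without knockdown replicate 1 and 1026 without knockdown replicate 2, with no receptor subunit among them. Noradrenergic neuroblastoma markers gave strong signals, with 11 of 12 above the array median in control cells, and TH, the rate-limiting enzyme of catecholamine synthesis, was the exception at 5.96. Of 6 measured markers of mature central neurons, 2 were above the array median. Of all genes 62.4% were, each gene taken by its brightest probe set. The median level of 12 mesenchymal markers was 9.59 and 9.11 after knockdown, against 9.04 and 8.95 in control cells, and that of the noradrenergic markers was 11.33 and 11.58 against 11.64 and 11.71. Knockdown replicate 1 stood farther from the control arrays than knockdown replicate 2 did in both lists. Their part in the values below was not tested.

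Most receptor subunits gave signals in the lower part of the array. The array median, the middle of all probe sets, was 6.58 and 6.61 after knockdown, against 6.58 and 6.58 in control cells, and the median over the 92 members was 6.10 and 6.10 against 6.12 and 6.09. On both control arrays 14 members exceeded the array median (15.2%), beside 48.7% of all probe sets. Only GRM7 exceeded the 75th percentile on both (1.09% of members, 24.6% of all). The 14 belonged to 12 genes, so 23 of the 35 genes had no probe set above the median. Of all genes 62.4% had their brightest probe set above it. Detection calls were not used here, and signals of different probe sets are not comparable as abundances because each set has its own affinity, so a probe set is placed only against the distribution of its array.

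**Figure D1:**
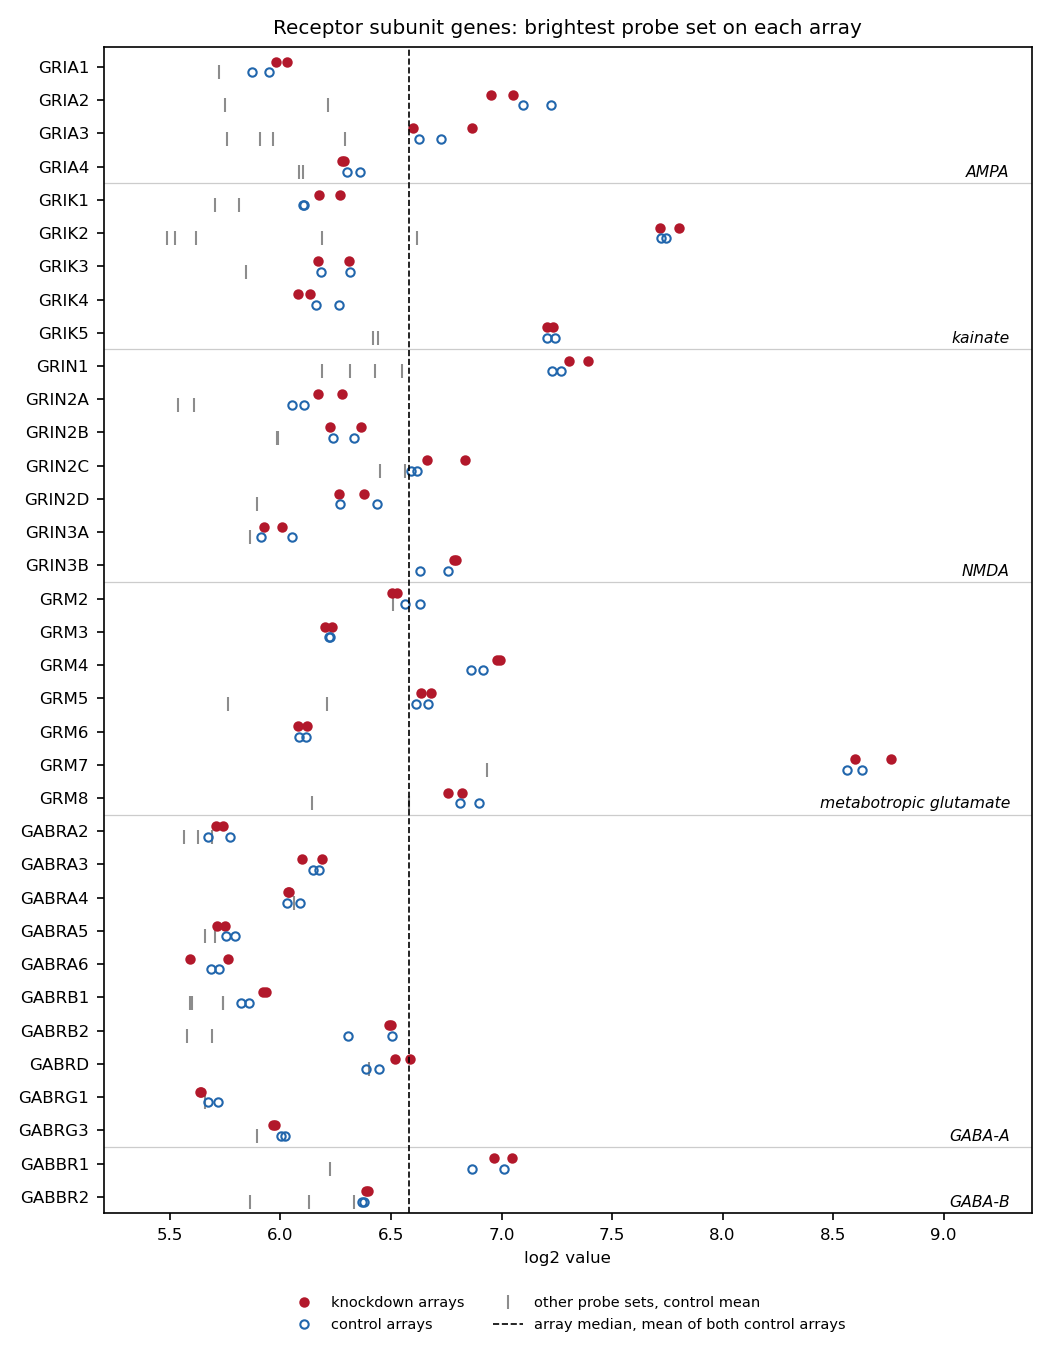
Log2 value of the brightest probe set of each of the 35 receptor genes on the 2 knockdown arrays (filled, upper) and the 2 control arrays (open, lower), with the control mean of the gene's other probe sets as grey ticks and the array median as a dashed line. Most genes lie left of the line, GRM7 and GRIK2 lie farthest right, and none of the 10 GABA-A genes shown has a control value above the line.

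Of the metabotropic glutamate receptors, 4 of 7 genes had a probe set above the array median, a share near that of all genes (62.4%). GRM7 held the member farthest above it. GRM7, a presynaptic receptor of group III that lowers transmitter release, had values of 8.76 and 8.60 after knockdown, against 8.63 and 8.56 in control cells at its brighter probe set. The control values stood at percentiles 81.6 and 81.0 of their arrays, and the groups overlapped (difference 0.08, 95% confidence interval -0.07 to 0.24). Its second probe set was also above the median, with 7.02 and 6.95 after knockdown, against 6.91 and 6.96 in control cells, so GRM7 was the only gene with 2 or more probe sets that had all of them above it.

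GRM4, another group III receptor, had 6.98 and 6.99 in knockdown cells and 6.91 and 6.86 in control cells. Its groups did not overlap, but the difference of 0.10 did not pass the threshold (limma, adjusted p = 0.69). GRM8, the third of this group above the median, had 6.76 and 6.82 against 6.81 and 6.90 at its brightest probe set, with overlapping groups. GRM5, which signals through phospholipase C, was just above the median at 1 of 3 probe sets, with 6.64 and 6.68 in knockdown and 6.61 and 6.67 in control cells. GRM2 and GRM3, the group II receptors, and GRM6, known from retinal bipolar cells, did not exceed the median on both control arrays. GRM3 and GRM6 differed between groups by less than 0.01.

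Among the kainate receptors GRIK2 and GRIK5 were above the array median. GRIK2, a subunit able to form channels by itself, had 7.72 and 7.80 in knockdown cells and 7.74 and 7.72 in control cells at 213845_at. The 2 knockdown values enclose those of control, a difference of 0.03 (95% confidence interval -0.10 to 0.15). All 6 probe sets of GRIK2 differed by 0.00 to 0.03, with control means from 5.49 to 7.73. GRIK5, a subunit that needs a partner such as GRIK2 to reach the surface, had 7.20 and 7.23 against 7.21 and 7.24 at its brightest probe set. That set carries the suffix _x_at, given to sets whose probes can bind other transcripts, and the remaining 2 sets of GRIK5 were below the median. GRIK1, GRIK3 and GRIK4 were below it throughout.

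GRIA2, the AMPA subunit that makes the channel impermeable to calcium once its transcript is edited, was above the median at 1 of 3 probe sets. It had 7.05 and 6.95 after knockdown, against 7.10 and 7.22 in control cells. Both knockdown values lay under both control values, by a gap of 0.045, and the difference was -0.16 ± 0.065 (SE; limma, unadjusted p = 0.041, adjusted p = 0.63). The other 2 GRIA2 probe sets differed by -0.03 and 0.02. GRIA3 exceeded the median at 1 of 5 probe sets, where knockdown replicates had 6.86 and 6.60 and controls 6.63 and 6.73. This was the widest gap between knockdown arrays among all members, and it spanned the control values. GRIA1 and GRIA4 were below the median at all their probe sets.

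Within the NMDA receptor, GRIN1, the obligatory glycine-binding subunit, had 7.31 and 7.39 in knockdown cells and 7.27 and 7.23 in control cells at its brightest probe set. The groups did not overlap and the difference was 0.10 (limma, adjusted p = 0.70). This was 1 of 5 probe sets of GRIN1, the only one above the median on the control arrays, and 4 of the 5 carry the _x_at suffix. GRIN3B, a subunit that lowers calcium permeability, had 6.80 and 6.79 against 6.63 and 6.76. GRIN2C, a glutamate-binding subunit, had 6.66 and 6.84 against 6.62 and 6.59 at 217573_at, while its other 2 sets were below the median and differed by -0.10 and -0.03. GRIN2B, GRIN2D and GRIN3A, of which GRIN2B is the main partner of GRIN1 in the developing brain, were below the median at every probe set.

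The marker GRIN2A, the subunit that replaces much GRIN2B as central neurons mature, was also below the array median at each of its 3 probe sets. At 206534_at it had 6.17 and 6.28 after knockdown, against 6.10 and 6.05 in control cells. The control values stood at percentiles 26.5 and 23.4 of their arrays. Both knockdown values exceeded both control values. The difference was 0.14 ± 0.059 (SE; limma, unadjusted p = 0.040, adjusted p = 0.63). The second probe set had 5.56 and 5.64 against 5.63 and 5.59, and the third 5.56 and 5.65 against 5.50 and 5.57, with overlap in both. The named marker was thus among the dim members.

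None of the 10 GABA-A receptor genes selected had a probe set above the array median on a control array. GABRQ, the theta subunit, which the symbol patterns do not take in, was above it on all 4 arrays, with 6.86 and 6.77 in knockdown cells and 6.84 and 6.79 in control cells. The 26 probe sets of these genes had control means from 5.56 to 6.42. The alpha subunit genes GABRA2 to GABRA6 had control means of at most 6.16, and the gamma subunit genes GABRG1 and GABRG3 of at most 6.01. Among beta subunit genes, GABRB1 had 6 probe sets with control means of at most 5.84, and GABRB2 had 6.49 and 6.50 in knockdown and 6.50 and 6.30 in control cells at its brightest. GABRD, the delta subunit of receptors outside the synapse, had control means of 6.42 and 6.40. For GABA-B, GABBR1, which binds GABA, had 6.97 and 7.05 in knockdown cells and 7.01 and 6.87 in control cells at 203146_s_at, above the median with overlapping groups. The other GABBR1 probe set was below the median, with 6.27 and 6.39 against 6.25 and 6.20. Its groups did not overlap, but the difference of 0.11 did not pass the threshold (limma, adjusted p = 0.70). GABBR2, the obligate partner that couples to the G protein, was below the median at all 4 probe sets, with control means from 5.86 to 6.37.

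The members nearest the line were GRIN2C at 217573_at (control mean 6.60) and the second probe set of GRIK2 (6.62) just inside, and GRM2 at 241802_x_at (6.60) and GRM8 at 216256_at (6.58) just outside, each of GRM2 and GRM8 above the median on 1 control array. With knockdown arrays used for the same count, 14 members were above on both arrays, and 12 were above on all 4. The 2 that were above on both knockdown arrays but not on both control arrays were GRIN1 at 211125_x_at and GRM8 at 216256_at. The suffixes _x_at and _s_at, which mark probes shared between transcripts, were carried by 7 of the 14 members above the median in control. Of 28 genes with several probe sets, 9 had some above and some below the array median, a count not made over all genes.

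**Figure D2:**
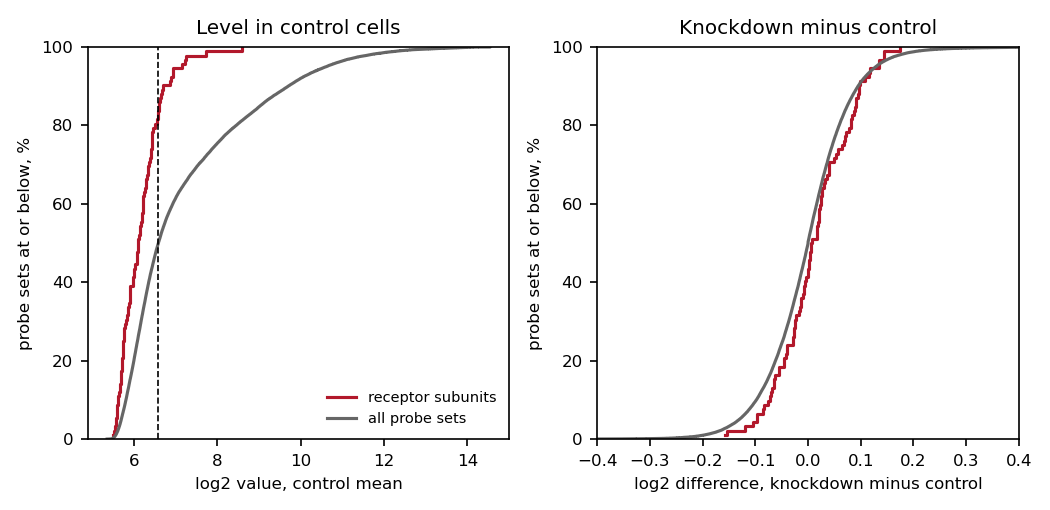
Share of probe sets at or below each value for the 92 receptor subunit probe sets (red) and all 54613 probe sets (grey), for the control mean (left; dashed line, array median) and for the log2 difference of knockdown minus control (right). The red curve lies far to the left for level, since 15.2% of members exceeded the array median against 48.7% of all, while for the difference the curves run close together around 0.

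Silencing of TSPAN8 was followed by no receptor subunit change past the threshold. Of the 92 probe sets 0 passed (limma, adjusted p under 0.05), with adjusted p from 0.60 to 1.00. At an unadjusted p under 0.05 there were 7 members (7.61%), beside 7.83% of all probe sets, 4 of them higher (3.72% of all probe sets were) and 3 lower (4.12%). The share among members was close to that of the array. Of the 76 members in the dimmer part of the array, split at the median mean signal, 5 were under 0.05 (6.58%), beside 4.45% of all probe sets there. No member differed by more than 0.2 in either direction, beside 2.19% of all probe sets and 0.535% of the dimmer ones. Differences ran from -0.16 to 0.18 with a median of 0.01, against 0.00 for all probe sets, and 54 members were above control (58.7%) and 38 below. Of the 76 dimmer members 41 were above control (53.9%), beside 56.7% of all probe sets in that part. The 95% confidence intervals of all 92 lay between -0.31 and 0.30, so a log2 change of 0.32 in either direction was outside each interval. Each interval holds for 1 probe set at a time. Its width rests on eBayes moderation toward a spread shared by the array, with 2 arrays per group, and not on the probe set's own spread alone. Summarised values of dim probe sets understate changes in transcript, so these bounds apply to signal and not to RNA.

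The 7 members at an unadjusted p under 0.05 came from 7 genes in 3 families, and none of their other probe sets was among them. Besides GRIA2 and GRIN2A, described above, they were GRIN1, GRIA3, GRIA4, GABRD and GABRG1. GRIN1 at 211125_x_at had 6.69 and 6.76 after knockdown, against 6.58 and 6.52 in control cells. It crossed the array median between the groups and had the largest difference of any member, 0.18 ± 0.056 (SE; limma, unadjusted p = 0.014, adjusted p = 0.60). The other 4 GRIN1 probe sets differed by 0.00 to 0.10, none below control.

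GRIA3 at 217565_at had 5.90 and 5.88 in knockdown cells and 5.80 and 5.72 in control cells, a difference of 0.13 (limma, adjusted p = 0.63). All 5 probe sets of GRIA3 were at or above control, by 0.00 to 0.13. GRIA4 at 1569178_at had 5.93 and 5.93 against 6.13 and 6.03, a difference of -0.15 (limma, adjusted p = 0.62), and its other 2 sets were at -0.05 and -0.06. GRIA3 and GRIA4, both AMPA subunits, thus lay on opposite sides of control, each with all its probe sets on that side, and neither passed the threshold.

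GABRD at 208457_at had 6.52 and 6.58 in knockdown cells against 6.45 and 6.39 in control cells, a difference of 0.13 (limma, adjusted p = 0.63), and its other probe set was at -0.05. GABRG1 at 1552943_at had 5.53 and 5.55 against 5.66 and 5.66, a difference of -0.12 (limma, adjusted p = 0.63), with -0.06 at the other set. Except for GRIA2, these 7 probe sets were below the array median on the control arrays.

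**Figure D3:**
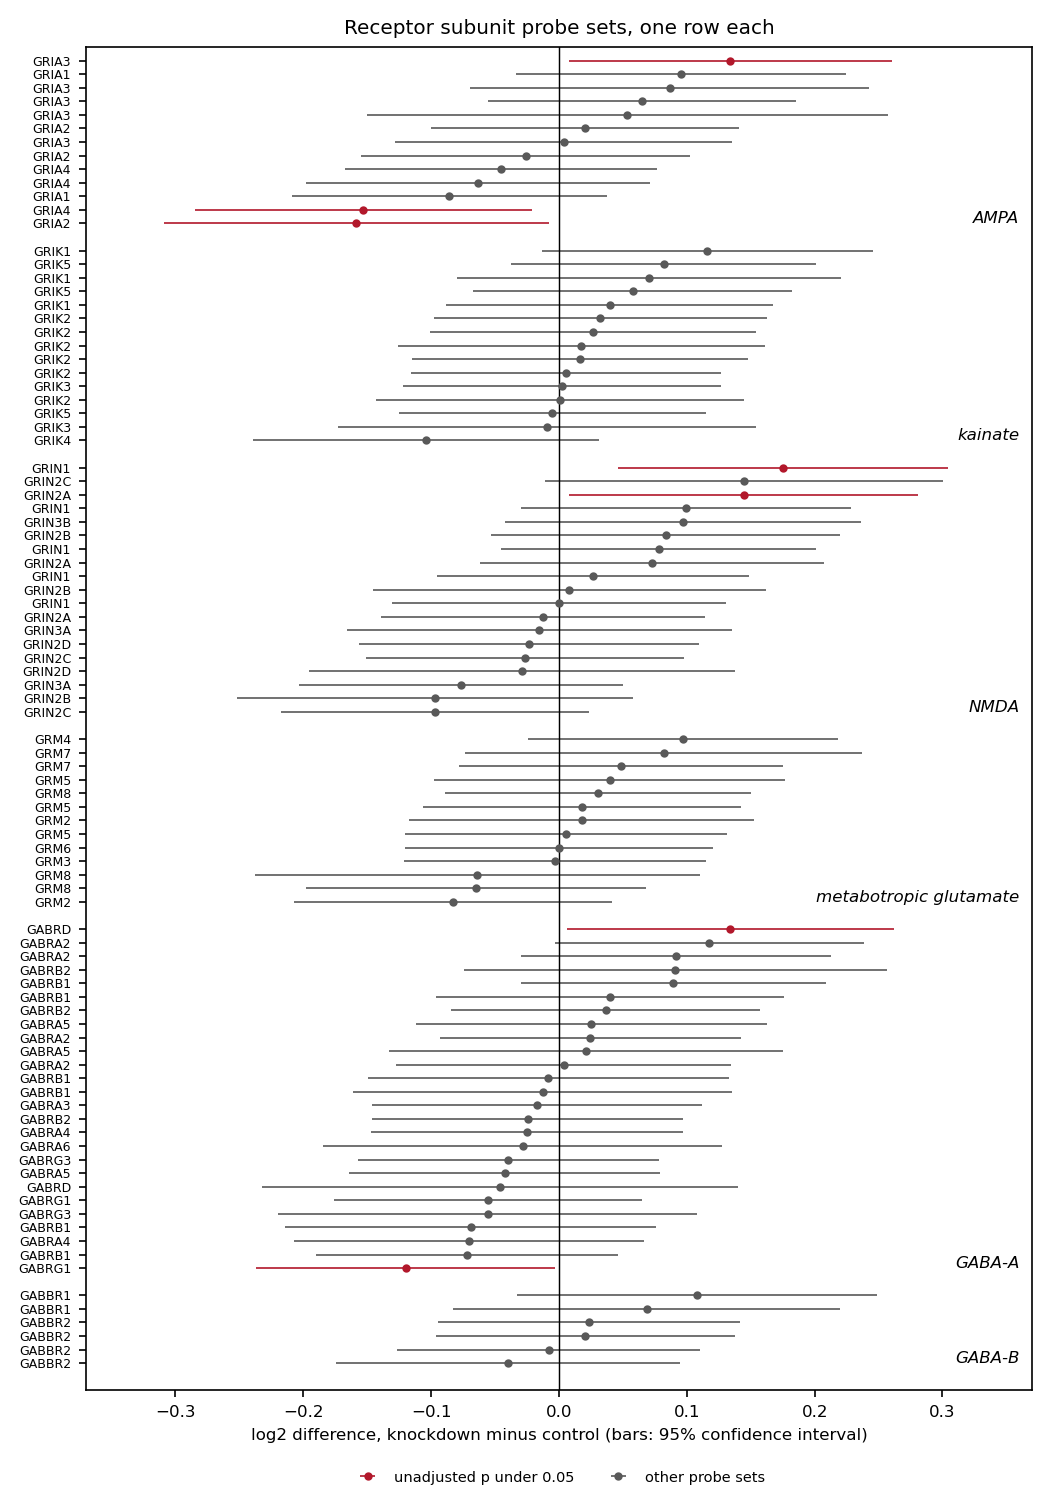
Log2 difference of knockdown minus control for each of the 92 receptor subunit probe sets, grouped by family, with 95% confidence intervals from limma. The 7 red rows have an unadjusted p under 0.05, no adjusted p is below 0.60, and every interval lies between -0.31 and 0.30.

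By family, AMPA subunits had 7 probe sets above control and 6 below (median 0.00), kainate subunits 12 and 3 (0.02), NMDA subunits 11 and 8 (0.01), metabotropic glutamate receptors 9 and 4 (0.02), GABA-A subunits 11 and 15 (-0.01) and GABA-B subunits 4 and 2 (0.02). The arrays of the groups did not overlap for 23 members that were higher (25%; 17.7% of all probe sets) and 15 that were lower (16.3%; 19.8% of all). In the dimmer part of the array, where 76 of the members lie, these were 17 (22.4%; 20.5% of all probe sets there) and 14 (18.4%; 13.5%). Replicates of the knockdown differed by a median of 0.05 across members, those of the control by 0.06, and the group means by 0.04. Over all probe sets these medians were 0.06, 0.06 and 0.05, so the members were close to the array. In 51 of the 92 members the knockdown arrays differed from each other by more than the groups did, and in 53 the control arrays did. These 2 counts were not made over all probe sets, so whether the members differ from the array in them was not tested. Of the 28 genes with several probe sets, 14 had differences of both signs, a count likewise not made over all genes.

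Other genes of glutamate and GABA signalling were compared in 5 lists of 65 measured genes, each gene by its brightest probe set. None passed the threshold (0.00506% of 19775 genes did). At an unadjusted p under 0.05 there were 3 (7.96% of all genes), 1 higher (2.39%) and 2 lower (5.57%). On both control arrays 41 of the 65 were above the array median, a share close to that of all genes (62.4%). Auxiliary subunits of glutamate receptors were split, with 9 of 16 above it. NETO2, an auxiliary subunit of kainate receptors, had 11.03 and 10.79 in knockdown and 10.90 and 10.88 in control cells, and CACNG4, a relative of stargazin that accompanies AMPA receptors, had 10.01 and 10.09 against 10.14 and 10.09. These 2 were singled out after their values were seen, as those farthest above the array median in the list. SHISA7 (0.11) and CACNG8 (-0.11) had the smallest p of the auxiliary list (limma, adjusted p = 0.65 each).

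Of 16 anchoring and trafficking genes 15 were above the array median. GRIP1, a scaffold that binds AMPA receptors, had 6.57 and 6.55 in knockdown and 6.44 and 6.31 in control cells, a difference of 0.18 (limma, adjusted p = 0.60), with 0.05 at its other probe set. HOMER2, a scaffold of group I metabotropic receptors, had 6.56 and 6.78 against 6.97 and 6.83, a difference of -0.23 (limma, adjusted p = 0.61), with -0.05 at its other set. Both had an unadjusted p under 0.05 and neither passed.

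In glutamate synthesis and transport, with 9 of 13 genes above the median, SLC1A4, a transporter of neutral amino acids, had 8.18 and 8.54 in knockdown cells and 8.59 and 8.87 in control cells, a difference of -0.37 ± 0.13 (SE; limma, adjusted p = 0.61). Its other probe sets were at -0.33, -0.33, -0.03 and 0.00, and replicate 1 was the lower array in both groups. GLUD1, glutamate dehydrogenase, was at -0.12. In GABA synthesis, transport and chloride balance, with 5 of 9 above the median, GAD1, which makes GABA from glutamate, had 8.06 and 7.73 against 7.73 and 7.58, a difference of 0.24 (limma, adjusted p = 0.64), with 0.09 and 0.31 at its other sets. SLC32A1, the vesicular GABA carrier, was at -0.10 and below the median. Among the other GABA and glycine receptor subunits and their partners 3 of 11 were above the median. GABRP was at -0.08, and KCTD12, an auxiliary protein of GABA-B receptors, had 9.98 and 9.60 against 9.73 and 9.55 with overlapping groups.

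**Figure D4:**
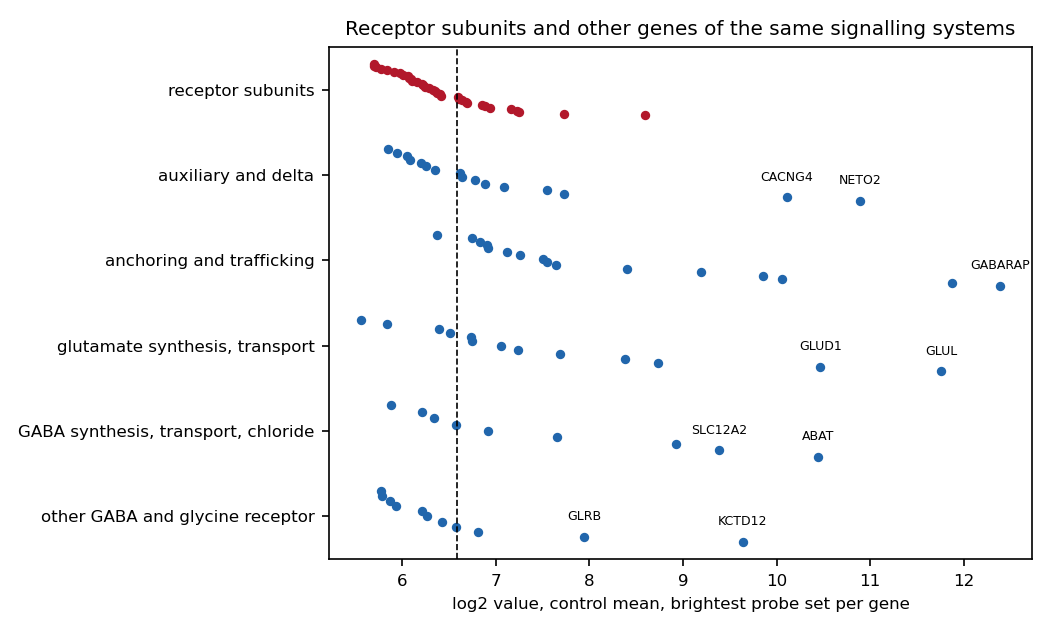
Control mean of the brightest probe set of each receptor subunit gene (red, 35 genes) and of the genes of 5 related lists (blue, 65 genes), on the log2 scale, with the array median as a dashed line and the brightest genes named. Of the receptor genes 12 have a probe set above the line on both control arrays, and of the list genes 41 do.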

How the data were processed

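Total RNA (100 ng) was labelled with biotin and hybridised to 3′-labelled oligonucleotide arrays, 1 array per sample. The deposited log2 values, 1 per probe set and array, were made by the authors with RMA in R 3.0.1, per the submitters' processing notes, which give no settings. RMA corrects background, normalizes quantiles and summarises the probes of a set. Values ran from 5.30 to 14.6. Of 54675 probe sets 62 AFFX controls were left out. Genes were named from the platform annotation: 41091 probe sets had 1 gene, 1801 several and 11721 were not listed. All 35 receptor genes matched a current RefSeq identifier.

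Knockdown minus control was fitted with limma 3.58.1 (lmFit, eBayes) in R 4.3.3 on all 4 arrays and 54613 probe sets, without covariates, with two-sided p-values and Benjamini-Hochberg adjustment. Simulated data of 54613 probe sets included 200 with a planted change. In these the fit recovered 52.8% of log2 changes of 0.4 and 95% of 0.6, with 10.1 false calls on average. The Benjamini-Hochberg cutoff is easier to reach when many probe sets change, and on the real arrays only 1 passed. How often a single receptor change of 0.4 or 0.6 would pass there was not tested. A gene's brightest probe set (highest mean) represents it in the lists. The text gives values for members above the array median on both control arrays, members at an unadjusted p under 0.05, those nearest the median, and the 2 genes of smallest p in each list, with NETO2, CACNG4, GABRB2 and GABRQ added after their values were seen. Members and lists were chosen with earlier results of these data known. Scan dates were not used here, and the number of arrays limits the precision. Alternatives are given in the closing section. Figures were drawn with matplotlib 3.10.9 under Python 3.11.15.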

Additional observations from a re-analysis of the deposited data

How the results depend on the processing

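No receptor probe set passed the threshold under any of the 12 alternatives refitted, including the omission of each array. For 22 of 23 named receptor probe sets the direction held outside the omission of arrays. The exception, GRIK5, was at 0.0014 after a second quantile normalization. With 1 array left out, GRIA3 (1569290_s_at) ran from -0.080 to 0.19, GRIK2 from -0.015 to 0.069 (213845_at) and from -0.013 to 0.077 (1560265_at), GRIK5 from -0.023 to 0.013, GRM5 from -0.010 to 0.046, GABBR1 from -0.0018 to 0.14 and GRIN2A (242286_at) from -0.050 to 0.025. Without a change of sign, other printed differences also moved by over 1.5 times when an array was left out: the lowest and highest values were 0.0015 and 0.16 for GRM7 (207548_at), 0.059 and 0.23 for GRIN2C (217573_at), 0.033 and 0.16 for GRIN3B, -0.11 and -0.022 for GRM8 (216992_s_at), 0.011 and 0.050 for GRM8 (216256_at), -0.12 and -0.048 for GRM2, 0.057 and 0.14 for GRIN1 (210782_x_at), 0.091 and 0.20 for GRIN2A (206534_at), 0.026 and 0.12 for GRIN2A (231384_at), -0.20 and -0.10 for GRIA4, and -0.22 and -0.095 for GRIA2. TSPAN8 ran from -1.32 to -1.22. The count of members at an unadjusted p under 0.05 was 4 after median centring, 2 of 16 among probe sets above the median mean signal, 4 without eBayes moderation, 4 without knockdown replicate 2, and from 1 (without control replicate 2) to 7 with an array left out. The median member was at -0.0068 after median centring, 0.051 above the median mean signal, and -0.00090 to 0.025 (without knockdown replicate 1) with an array left out. Of the list genes 5 were under 0.05 after the second quantile normalization, 6 after median centring, 5 without moderation, and 2 to 7 (without knockdown replicate 2) with an array left out. Without moderation TSPAN8 was at -1.27 with an adjusted p of 0.69. Between 14 and 16 members were above the array median with either control array alone, 12 without _x_at and _s_at probe sets, where the median was taken again, and 1 above the 75th percentile. Except where probe sets or arrays were left out, the cause was not tested.

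The labels do not pair equal replicate numbers. Deviations of replicate 1 from the group means correlated at 0.051 between the groups across all probe sets. With 2 arrays per group, replicate 2 gives the same value and adds no further evidence on pairing. With the replicate number as a block 3 members were at an unadjusted p under 0.05, and TSPAN8 was at -1.27 with an adjusted p of 0.16, so 0 probe sets of the array passed.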
